A study of Mus musculus with 2 samples.

Results

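The genes described here encode the proteins of the mitochondrial ribosome, taken as every symbol that begins with Mrpl or Mrps followed by a digit, with symbols of pseudogenes left out. The rule found 78 of the 34714 genes in the table. Of these, 51 encode proteins of the large subunit, 26 encode proteins of the small subunit, and Mrps36 is counted apart. They were measured by RNA sequencing in bone marrow-derived macrophages of C57BL/6 mice, differentiated in the growth factor M-CSF (20 ng/mL). One group received the anti-CD40 monoclonal antibody FGK45 for 24 h to activate the receptor CD40, and the other received IgG. Each group held 1 library, and the number of mice or cultures behind a library is not given in the sources used here. No difference therefore has a replicate check, and no p-value was computed.

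Mitochondria keep a small genome of their own, and a dedicated ribosome inside the organelle translates its messenger RNAs into core subunits of the respiratory chain. All proteins of that ribosome are encoded in the nucleus, made in the cytosol and imported. Many descend from the bacterial ribosome of the organelle's ancestor, whereas others exist only in mitochondria. In macrophages, inflammatory activation is known to remodel mitochondrial respiration, so the machinery that supplies it is of interest beside an activating antibody.

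Values are FPKM, that is, fragments scaled by transcript length and library size, so levels of different genes can be set beside each other. At the estimated depth of 6.16 (anti-CD40) and 5.58 (IgG) gigabases, the median member rested on about 390 and 332 fragments. Folds are ratios of the FPKM values, followed in brackets by their 95% counting interval, which covers counting error only and not the spread between cultures. The cells carried macrophage transcripts, with 8 of 8 marker genes at 1 FPKM or more (3.83 to 13400). Of markers of B cells, dendritic cells and fibroblasts, 0 of 3, 0 of 4 and 0 of 3 reached 1 FPKM. Among T cell, neutrophil, erythroid and megakaryocyte markers, 1 per list did so, and all 4 stayed at or below 8.29 FPKM. Cd3e, Cd3g, Cd8a, Ly6g and S100a9 were listed at 0. Summed macrophage markers were 15200 FPKM under anti-CD40 and 12900 under IgG, mostly Lyz2 (13400 and 11300), while Csf1r had 333 in both and Fcgr1 27.1 and 30.3, and their part in the results was not tested. In bulk RNA, fewer cells of a type and less RNA per cell cannot be told apart.

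All 78 members were at 2 FPKM or more in both libraries, so the filter at 1 FPKM removed none. The genes kept their order of abundance almost unchanged, with a Spearman correlation across the 78 genes of 0.98. It was 0.99 over 9452 genes at 1 FPKM or more. Both values rest on the same 2 libraries and are given without a p. Levels ranged from 2.29 to 210 FPKM with IgG and from 2.71 to 188 FPKM with anti-CD40, although the proteins are built into a common particle. The most abundant were Mrpl52, Mrpl12, Mrps21, Mrpl24 and Mrpl23. Mrpl52, a protein found only in mitochondrial ribosomes, had 188 FPKM under anti-CD40 and 198 under IgG. Mrps21 of the small subunit had 140 and 152. At the other end stood Mrps22 with 2.71 and 2.48 FPKM, Mrpl35 with 3.28 and 2.29, Mrpl1 with 3.50 and 2.77, Mrps31 with 4.94 and 3.22, and Mrpl17 with 4.55 and 3.46. Of these 5 scarce members, all were higher with anti-CD40. Most scarce genes were so, since of all 5643 genes past the filter with a mean below 10 FPKM, 27.8% were lower. The counting intervals of Mrps22 (0.834 to 1.43), Mrpl35 (0.901 to 2.37) and Mrpl17 (0.922 to 1.88) include 1.

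**Figure D1:**
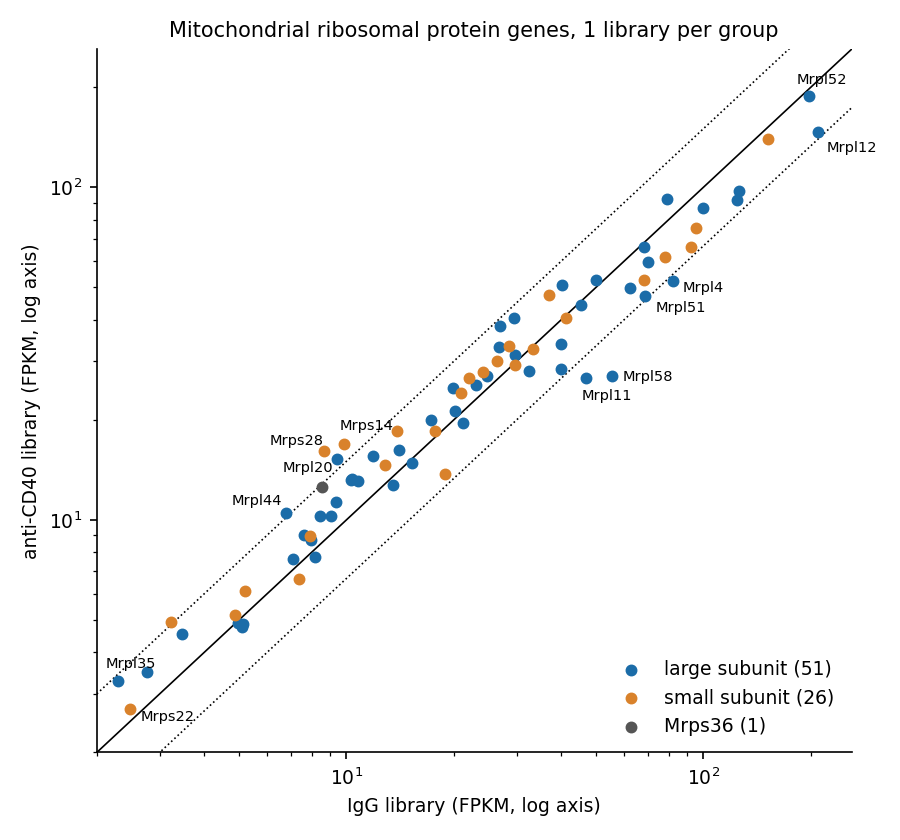
Level of each of the 78 members in the IgG library (x axis, FPKM, log scale) and the anti-CD40 library (y axis, FPKM, log scale), coloured by ribosomal subunit; the solid line marks equal values and the dotted lines 1.5-fold. Mrpl58 and Mrpl11 lie below the lower dotted line, and Mrps28 and Mrps14 lie above the upper one.

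As a group, these genes stood near the rest of the transcriptome. Their median log2 ratio of (FPKM + 1), anti-CD40 over IgG, was 0.09, beside 0.12 for the 9591 genes at 1 FPKM or more. Of the 78 members, 45 (57.7%) had a log2 ratio above 0, against 67.8% of all genes. In all, 37 (47.4%) lay above that all-gene median, against 50% of all genes. After centring on the all-gene median, or after upper-quartile scaling, the members' median turned to -0.03. Single members were spread from -1.02 to 0.83, with a standard deviation across genes of 0.34 against 0.30 for all genes. Summed over members, 2600 FPKM with anti-CD40 stood against 2830 with IgG, a ratio of 0.918, while the median member was higher, at 24.4 against 21 FPKM. The sum and the median thus lay on opposite sides of equality. This also held for all genes, whose sums stood in a ratio of 0.967. Their median at 1 FPKM or more was 7.41 against 6.69 FPKM.

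At 1.5-fold or more on the (FPKM + 1) scale, 3 members were higher with anti-CD40 and 3 were lower, or 3.85% each. Of all 9591 genes, 2.68% passed 1.5-fold higher and 2.15% passed 1.5-fold lower, so the members' shares are close to the background. At 2-fold, 0 members were higher and 1 was lower, against 0.25% and 0.313% of all genes. A counting interval wholly above 1 was found for 23 members (29.5%, against 29.0% of all genes), and one wholly below 1 for 19 members (24.4%, against 12.6%). These shares are not like for like, as more fragments narrow the interval. The median member rested on about 390 and 332 fragments, and the median of all genes at 1 FPKM or more on 221 and 180.

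Mrpl58 was the member furthest below equality. It encodes a peptidyl-tRNA hydrolase that frees stalled mitochondrial ribosomes and is itself built into the large subunit (chromosome 11, 115403724 to 115412674, GRCm38). It had 27.0 FPKM under anti-CD40 and 55.6 under IgG, 2.06-fold lower (1.80 to 2.36). Its log2 ratio on the (FPKM + 1) scale was -1.02, just past 2-fold, and it fell inside 2-fold with both libraries rescaled to a common sum, with a pseudocount of 5, or with length and GC trends removed. Mrpl11, a protein at the base of the stalk that receives translation factors (chromosome 19, 4962152 to 4966995), had 26.8 against 46.8 FPKM, 1.75-fold lower (1.53 to 1.99). Mrpl4, whose bacterial counterpart lines the tunnel for the growing peptide (chromosome 9, 21001252 to 21008839), had 52.2 against 82.0 FPKM, 1.57-fold lower (1.44 to 1.72). In all 3 of these large-subunit genes the IgG library held the higher value, by more than counting error.

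The 3 members past 1.5-fold in the other direction were Mrps28, Mrps14 and Mrpl20. Mrps28, a small-subunit protein (chromosome 3, 8802146 to 8923857), had 16.1 FPKM under anti-CD40 and 8.63 under IgG, 1.87-fold higher (1.5 to 2.33). Mrps14, a small-subunit protein with a bacterial counterpart (chromosome 1, 160195215 to 160201186), had 16.9 against 9.84 FPKM, 1.72-fold higher (1.40 to 2.12). Mrpl20, a large-subunit protein with a bacterial counterpart (chromosome 4, 155802878 to 155808831), had 15.2 against 9.40 FPKM, 1.62-fold higher (1.25 to 2.11). All 3 had a mean level between 10 and 20 FPKM, well under those of Mrpl58, Mrpl11 and Mrpl4. Just short of the threshold lay Mrpl44 (0.56 on the log2 scale), Mrpl51 (-0.53), Mrpl12 (-0.51) and Mrps36 (0.51). None of the 6 genes past 1.5-fold had exons overlapping another gene by 100 bases or more, or a near-identical copy, whereas 36 of the 78 members had one or the other. Values of members with a near-identical copy or shared stretch are uncertain. Among members with values given here, near copies exist for Mrpl21, Mrpl22, Mrpl23, Mrpl24, Mrpl27, Mrpl42, Mrpl48 and Mrpl53. The others with a near copy are Mrps6, Mrps18b, Mrps21, Mrps34 and Mrps36. Besides these, exons overlap another gene by 100 bases or more in Mrpl9, Mrpl10, Mrpl12, Mrpl13, Mrpl18, Mrpl33, Mrpl43, Mrpl44, Mrpl46 and Mrpl47. The same holds for Mrps7, Mrps11, Mrps18c and Mrps30, and the values of all these are uncertain too. The processed pseudogene of Mrpl23 is identical over 540 bases.

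**Figure D2:**
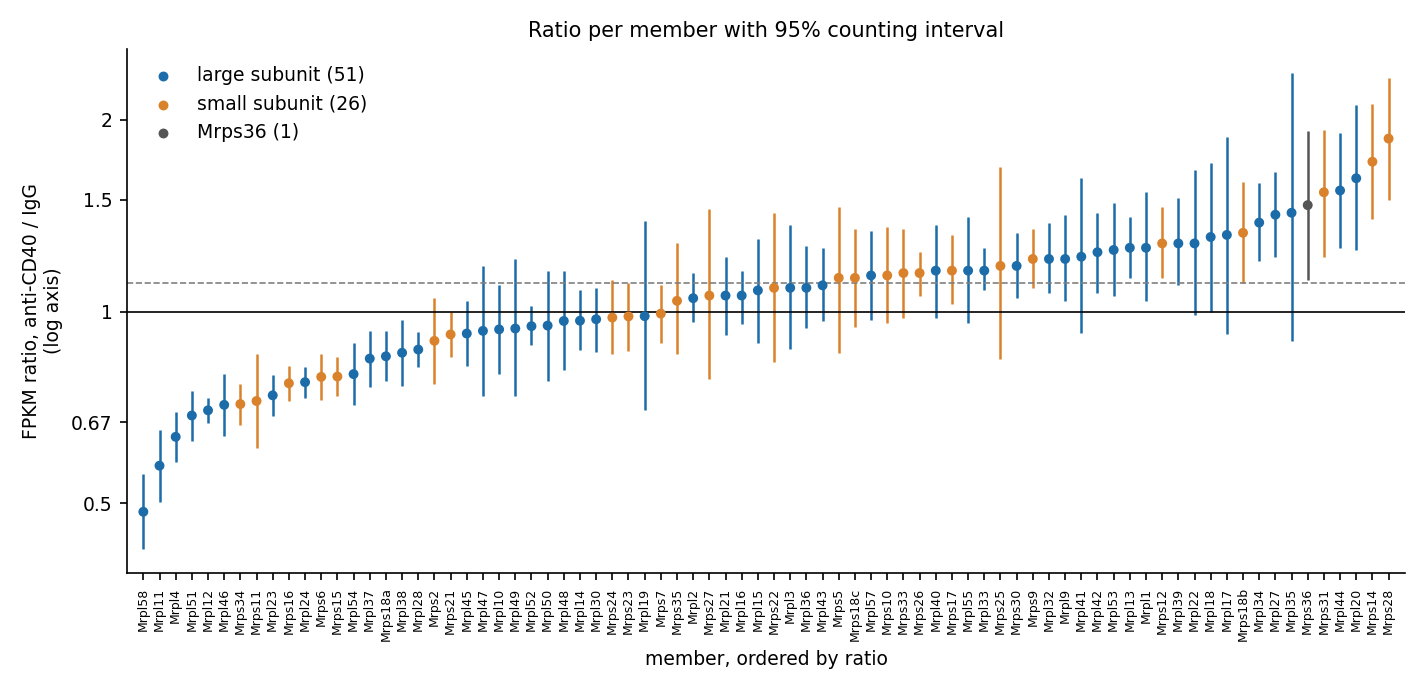
FPKM ratio of anti-CD40 over IgG (y axis, log scale) for each member (x axis, ordered by ratio), with vertical lines for the 95% counting interval, which covers counting error only, and a dashed line at 1.11, the median ratio of all genes at 1 FPKM or more. The ratios run from 0.485 (Mrpl58) to 1.87 (Mrps28), and the 5 lowest all belong to large-subunit genes.

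The promoters of 5 members are shown to set low, high and abundant members side by side. They are the 2 lowest and 2 highest ratios, and the gene of the highest mean level, among 19 members. In these 19, the 150 bases before the start used hold no exon annotated in GENCODE M21. Mrps16 is thus low among these 19, while other members without such a window were lower. The sequences are from RefSeq (GRCm38.p6), 5′ to 3′ on the gene's strand, and capitals mark a match to any of 8 searched motifs, which are named with their shares in the account of the promoters.
Mrpl58 (chr11:115403602-115403751, + strand, lower with anti-CD40): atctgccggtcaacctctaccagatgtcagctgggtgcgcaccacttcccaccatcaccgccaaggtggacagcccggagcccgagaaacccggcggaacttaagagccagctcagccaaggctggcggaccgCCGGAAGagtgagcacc
Mrps16 (chr14:20393635-20393784, - strand, lower, 52.6 against 68.1 FPKM): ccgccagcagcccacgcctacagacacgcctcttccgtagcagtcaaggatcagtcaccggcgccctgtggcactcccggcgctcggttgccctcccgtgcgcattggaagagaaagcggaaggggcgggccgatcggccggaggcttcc
Mrpl20 (chr4:155802728-155802877, + strand, higher): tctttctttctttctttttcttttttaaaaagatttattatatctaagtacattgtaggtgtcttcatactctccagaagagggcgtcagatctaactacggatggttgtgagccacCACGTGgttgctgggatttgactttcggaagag
Mrps14 (chr1:160195065-160195214, + strand, higher): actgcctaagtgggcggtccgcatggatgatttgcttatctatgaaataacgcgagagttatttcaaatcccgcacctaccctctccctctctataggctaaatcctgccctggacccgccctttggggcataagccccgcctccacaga
Mrpl52 (chr14:54426759-54426908, + strand, highest mean level): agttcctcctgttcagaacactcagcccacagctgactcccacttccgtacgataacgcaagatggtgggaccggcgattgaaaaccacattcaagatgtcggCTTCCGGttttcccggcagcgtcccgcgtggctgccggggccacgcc
The ETS letters stand in the windows of Mrpl58 and Mrpl52, an E-box stands in that of Mrpl20, and the windows of Mrps16 and Mrps14 hold none of the searched letters. The RefSeq span of Mrpl58 begins at 115403724, before the end of its window. Its ETS letters lie past that base, so inside the span and not upstream of it.

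Within the large subunit, the stalk and its base recruit the factors that drive initiation and elongation. Mrpl12, the protein of the flexible stalk, had 147 FPKM under anti-CD40 and 210 under IgG, 1.43-fold lower (1.36 to 1.5), and rested on about 3136 and 4067 fragments. Mrpl11 had 26.8 against 46.8 FPKM and Mrpl54 49.8 against 62.3. Thus 3 of the 5 stalk genes were lower by more than counting error, which held for 12.6% of all genes. The shares are not like for like, as more fragments narrow the interval. Median fragments were 378 and 598 for the stalk genes, against 221 and 180 for all genes at 1 FPKM or more. Mrpl10, which anchors the stalk, had 12.7 against 13.5 FPKM, and Mrpl53 had 24.9 against 19.9. The 5 genes had a median log2 ratio of -0.32, 1 of them above the all-gene median. Mrpl53 was that gene, so the stalk genes did not all lie on the same side.

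Genes around the peptide exit tunnel were split. Mrpl23 and Mrpl24, large-subunit proteins with bacterial counterparts, had 91.4 against 124 and 97.4 against 126 FPKM, 1.35-fold (1.26 to 1.46) and 1.29-fold (1.22 to 1.36) lower. Mrpl44, a protein with a ribonuclease III-like fold, had 10.5 against 6.78 FPKM, 1.55-fold higher (1.26 to 1.91). Mrpl39 had 13.2 against 10.3 FPKM, and Mrpl22, at the tunnel wall, 13.3 against 10.4. Mrpl45, which holds the ribosome to the inner membrane, lay closer to equality at 19.6 against 21.2 FPKM, as did Mrpl47 at 4.76 against 5.10. The 7 genes ranged from -0.43 to 0.56 on the log2 scale; Mrpl4 was not in this list.

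The central protuberance, the part of the large subunit that touches the small subunit and the transfer RNAs, showed the widest spread of the groups by position. Besides Mrpl58, Mrpl46 had 28.5 FPKM under anti-CD40 against 40.0 under IgG, 1.40-fold lower (1.25 to 1.57). Mrpl27, a bacterial-type protein near the peptidyl transferase centre, had 38.2 against 26.9 FPKM, 1.42-fold higher (1.22 to 1.66). Mrps30, which belongs to the large subunit despite its symbol, had 8.99 against 7.59 FPKM, 1.18-fold higher (1.05 to 1.33). Mrpl18 had 15.6 against 11.9, Mrpl40 20.0 against 17.3, Mrpl38 28.0 against 32.5 and Mrpl48 14.8 against 15.3 FPKM. The 8 genes had a standard deviation of 0.50 on the log2 scale, and 4 lay above the all-gene median.

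Of the remaining large-subunit genes named by rule, Mrpl51, found only in mitochondrial ribosomes, had 47.2 FPKM under anti-CD40 and 68.7 under IgG, 1.46-fold lower (1.33 to 1.60). Mrpl34, a small bacterial-type protein, had 40.6 against 29.4 FPKM, 1.38-fold higher (1.2 to 1.59). The 30 large-subunit genes with a bacterial counterpart had a median of 0.11 on the log2 scale, and the 21 genes specific to mitochondria a median of -0.06. Across the whole subunit, 28 of 51 genes (54.9%) were above 0, against 67.8% of all genes. Above the all-gene median lay 23 (45.1%), against 50% of all genes. The levels of the subunit summed to 1770 FPKM under anti-CD40 against 1960 under IgG.

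In the small subunit, which reads the messenger RNA, Mrps12 of the decoding centre had 47.3 FPKM under anti-CD40 and 36.9 under IgG, 1.28-fold higher (1.13 to 1.46). Mrps34, a mitochondria-specific protein, had 66.2 against 92.5 FPKM, 1.40-fold lower (1.30 to 1.51). Its exons overlap those of Nme3 and Mapk8ip3, and whether reads were assigned by strand is not given in the sources used here. Mrps11 had 13.7 against 18.9 FPKM, 1.38-fold lower (1.16 to 1.64). Mrps31 had a ratio of 1.54 (1.22 to 1.93) but lay within 1.5-fold on the (FPKM + 1) scale, as its levels are low. The 15 genes placed as bacterial-type had a median of -0.01 on the log2 scale, and the 11 placed as mitochondria-specific a median of 0.19. Of these 11, 9 were above 0, against 67.8% of all genes, and 6 were above the all-gene median, against 50%. Mrps28, the highest of all members at 0.83, was counted among the 11. The medians with Mrps28 placed as bacterial-type were not computed, so the contrast by origin rests on that placement. The subunit's sums, 820 and 862 FPKM, stood in a ratio of 0.951, close to the 0.967 of the whole libraries, whereas that of the large subunit was 0.901.

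The Mrps18 paralogs are related to bacterial S18 and now serve different places. In the counts by origin, Mrps18a and Mrps18b were placed with the mitochondria-specific genes and Mrps18c with the bacterial-type genes. Mrps18a, which is built into the large subunit, had 59.6 FPKM under anti-CD40 and 70.1 under IgG, 1.18-fold lower (1.07 to 1.29). Mrps18b of the small subunit had 18.5 against 13.9 FPKM, 1.33-fold higher (1.11 to 1.60). Mrps18c, also of the small subunit, had 30 against 26.5 FPKM, with an interval on its ratio from 0.947 to 1.35. The first was thus lower and the second higher by more than counting error, and the third was not told apart from equality at this depth. Mrps18b has a processed pseudogene that matches it at 99.76% over 417 bases, so its value is uncertain. Mrps36 carries a ribosomal symbol but is known as a part of the alpha-ketoglutarate dehydrogenase complex. It had 12.6 against 8.57 FPKM, 1.47-fold higher (1.12 to 1.92), and it too has near-identical processed pseudogenes. Leaving it out changed no count past 1.5-fold.

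Among members not yet named, most lay close to equality. Mrps6 and Mrps15 of the small subunit, with 61.6 against 78 and 75.5 against 95.4 FPKM, and Mrpl28 and Mrpl37 of the large subunit, with 86.8 against 99.6 and 33.7 against 39.9 FPKM, were lower under anti-CD40 by more than counting error. Mrpl13 with 50.8 against 40.3 FPKM, Mrpl42 with 33.2 against 26.8, Mrps9 with 26.8 against 22.1, Mrpl32 with 13.1 against 10.8, Mrpl9 with 11.3 against 9.33, Mrps17 with 33.3 against 28.6 and Mrps26 with 24.0 against 20.9 were higher by more than counting error. Bacterial-type proteins stand on both sides of this divide. An interval wholly above 1 was found for 29.0% of all genes. Of the members listed as higher, only Mrpl13 has an interval (1.13 to 1.41) wholly above 1.11, the median ratio of all genes. Near equality lay Mrps7 with 29.3 against 29.6 FPKM, Mrps23 with 40.5 against 41.2 and Mrpl21 with 31.4 against 29.6, and their intervals include 1.

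The ratio of a member moved with its level. Across the 78 members, the Spearman correlation between log2 ratio and mean FPKM was -0.50, and it was -0.56 with the IgG value and -0.41 with the anti-CD40 value, so the sign did not hinge on which library set the level. Of 17 members at a mean of 50 FPKM or more, 15 (88.2%) were lower with anti-CD40, with a median of -0.33 on the log2 scale. Mrpl33, at 92.2 against 79.3 FPKM, was the 1 gene of these above the all-gene median. Of all 1206 genes at that level, 50.5% were lower and the median was 0.00. Between 10 and 20 FPKM, 13 of 17 members (76.5%) lay above the all-gene median, against 53.9% of 1465 genes. The other ranges lay near the background, with 52.0% of members against 47.2% of genes between 20 and 50 FPKM and 52.6% against 52.2% below 10 FPKM, so the scarcest members did not continue the pattern. Over all genes, the Spearman correlation between ratio and level was -0.07. The level ranges were set after the values were seen.

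Base composition moved with both. The Spearman correlation of the members' ratio with transcript GC content was -0.30, and that of level with GC was 0.51. Of the 39 members at or above 51.4% GC, 21 were lower with anti-CD40, against 12 of the 39 below it. Among all genes the corresponding shares were 41.4% and 23.2%. With trends on length and GC removed, the Spearman correlation between ratio and level was -0.42 over members and -0.01 over all genes, and the 17 abundant members had a median of -0.22, against 0.07 for the 1203 genes of that level and 0.15 for all genes. The Spearman correlation of the ratio with transcript length was -0.13.

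**Figure D3:**
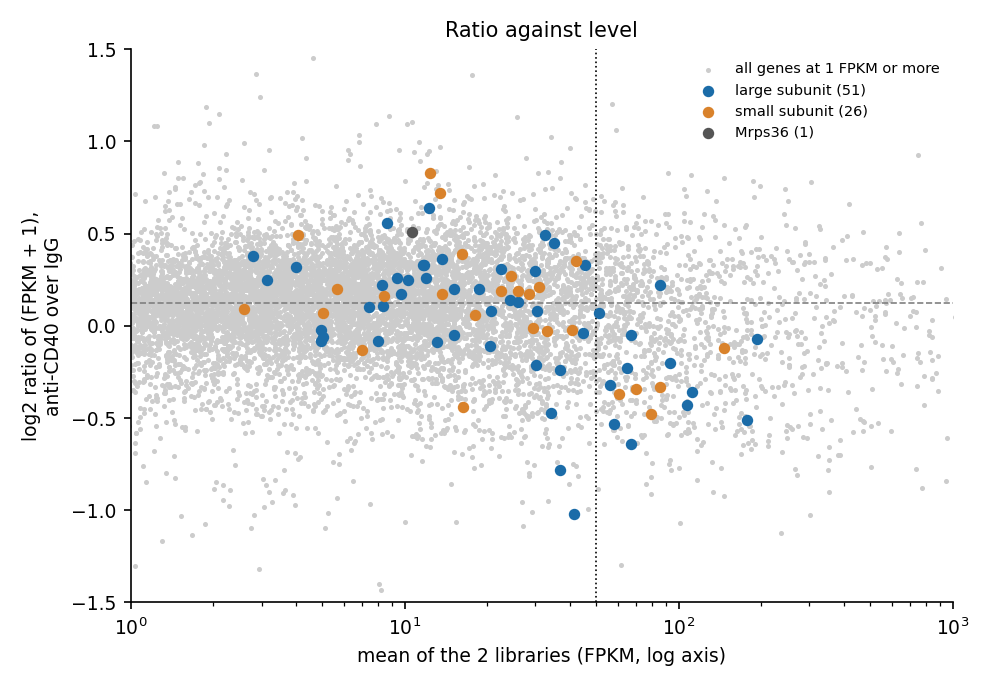
Log2 ratio of (FPKM + 1), anti-CD40 over IgG (y axis), against the mean of the 2 libraries (x axis, FPKM, log scale) for the members, coloured by subunit, and for all genes at 1 FPKM or more in grey; some grey points lie outside the axes. Right of the dotted line at 50 FPKM, 15 of 17 members lie below 0, and the dashed line marks the all-gene median of 0.12.

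The same relation with level appeared in other groups that build a large particle. The Spearman correlation was -0.54 over 77 cytosolic ribosomal protein genes and -0.49 over 75 nuclear-encoded subunits of the respiratory chain. Subunits of the ATP synthase are counted with the respiratory chain here. These rest on the same 2 libraries. The cytosolic ribosomal genes had a median log2 ratio of -0.02, with 29 of 77 above the all-gene median, and the respiratory chain genes a median of 0.07, with 36 of 75 above. Past 1.5-fold, 3 cytosolic ribosomal genes were higher and 8 lower (10.4%), and 7 respiratory chain genes were higher (9.33%) and 5 lower, beside 2.68% and 2.15% of all genes. The members, at 3 and 3 (3.85% each), had a smaller share past 1.5-fold lower than both groups. Their share higher was near the 3.9% of the cytosolic ribosomal genes. The groups are not like for like, as the (FPKM + 1) scale understates differences of low genes. Median levels under anti-CD40 were 24.4 FPKM for the members, 913 for the cytosolic ribosomal genes and 109 for the respiratory chain genes.

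Subunits of the mitochondrial ribosome with other symbols were measured too. Chchd1 of the small subunit had 71.8 FPKM under anti-CD40 and 109 under IgG, or 0.660 times (0.603 to 0.723). Gadd45gip1, a large-subunit protein at the tunnel exit, had 60 against 79.6 FPKM, or 0.754 times (0.718 to 0.791). Dap3, the GTP-binding protein of the small subunit, had 20.8 against 22 FPKM, Aurkaip1 62.4 against 63.7, and Ptcd3, a pentatricopeptide repeat protein, 3.75 against 3.47. Of these 5 genes, 0 lay above the all-gene median, and the median log2 ratio was -0.07. Added to the members, they moved the members' median from 0.09 to 0.08. Oxa1l, the insertase that takes the finished chain into the inner membrane, had 25.6 against 23.9 FPKM.

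Of 24 assembly factors, 22 reached 1 FPKM, and 10 of them lay above the all-gene median, with 0 past 1.5-fold higher and 3 lower (13.6%), against 2.68% and 2.15% of all genes. Those 3 were Rbfa, a maturation factor of the small subunit, at 74.0 against 127 FPKM, Mpv17l2, an inner-membrane protein needed for ribosome assembly, at 57.7 against 93.6, and Mrm2, a methyltransferase of the large ribosomal RNA, at 8.38 against 13.2. Rbfa and Mpv17l2 were also the most abundant of the list. Ddx28, a helicase of large-subunit assembly, had 20.8 against 26.8 FPKM. On the higher side stood Ngrn with 12.8 against 9.57 FPKM, Rpusd4 with 8.29 against 6.21, Mtg1, an assembly GTPase, with 7.03 against 5.43, and Mtg2 with 6.03 against 4.69. The intervals of Rpusd4 (0.981 to 1.80) and Mtg1 (0.949 to 1.77) include 1.

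All 14 translation factors reached 1 FPKM, with 6 above the all-gene median and 1 past 1.5-fold higher (7.14%, against 2.68% of all genes). That gene was Tsfm, the exchange factor that recharges elongation factor Tu, with 16.9 FPKM under anti-CD40 against 9.49 under IgG, a ratio of 1.77 (1.42 to 2.22). Its partner Tufm, the elongation factor itself, had 31.4 against 30.7 FPKM (0.870 to 1.2 on the ratio). Gfm1, which moves the ribosome along the message, had 5.30 against 4.04, and Gfm2, which helps to recycle it, 5.38 against 3.84. Genes for maintenance and expression of mitochondrial DNA, 12 in all with 11 at 1 FPKM, had a median of 0.12 and 6 above the all-gene median. Lrpprc, which stabilises mitochondrial messages, had 6.18 against 4.29 FPKM, and Polrmt, the mitochondrial RNA polymerase, 6.74 against 7.80.

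**Figure D4:**
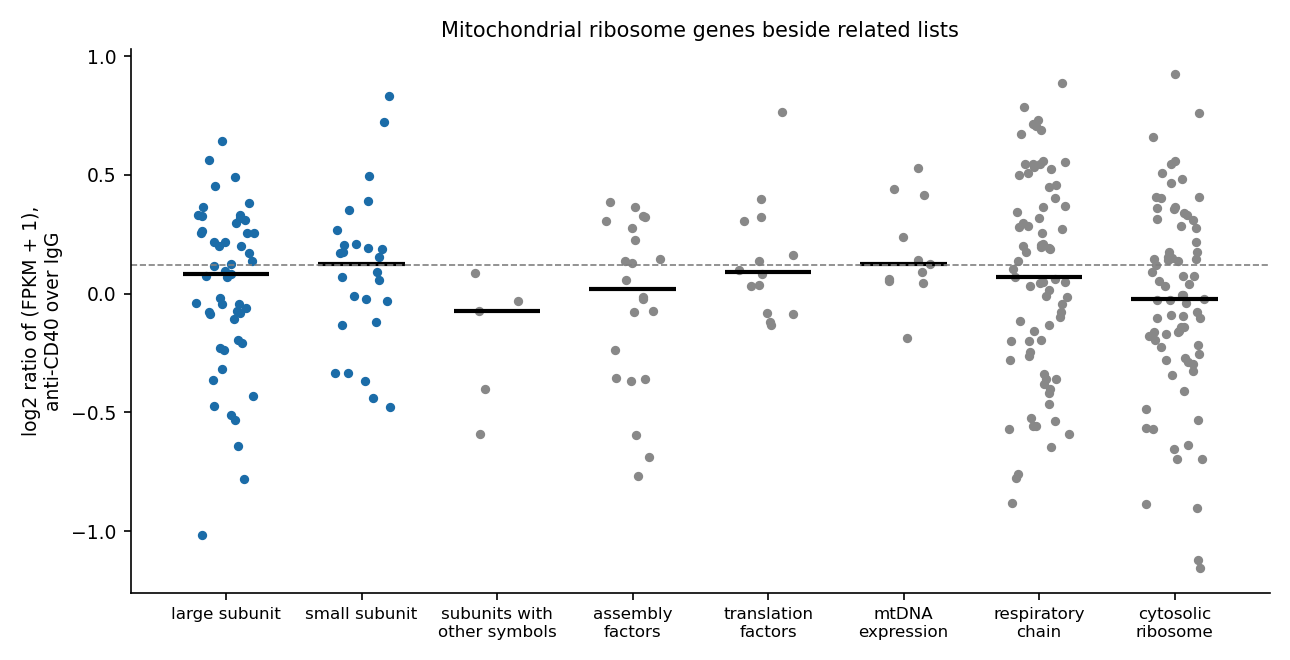
Log2 ratio of (FPKM + 1), anti-CD40 over IgG (y axis), for genes at 1 FPKM or more of the large and small mitochondrial subunits (blue) and of related lists (grey), each point a gene placed with sideways scatter, with a bar at each median and a dashed line at the all-gene median of 0.12. The medians lie between -0.07 and 0.12.

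The promoter windows ran from 250 bases before to 50 bases after the start, in RefSeq, and 69 of 78 members had one. Mrpl4, Mrpl13, Mrpl15, Mrpl19, Mrpl38, Mrpl54, Mrps28, Mrps34 and Mrps35 had no entry. Motifs were searched as exact letters on both strands: CCGGAAG for ETS factors such as GABPA, AAGATGGCG for YY1 and the NRF1 palindrome, which are known regulators of nuclear genes for mitochondria. The E-box CACGTG, the cyclic AMP response element (CRE) TGACGTCA and the NF-kB palindrome were searched too. Last came the AP-1 site, spelled TGANTCA with N for any base. The TATA box was searched as its usual letters TATAAA. The CCGGAAG letters were in 26 members (37.7%), against 22.7% of 7864 genes at 1 FPKM or more and 9.93% of all 27024 genes with a window. NRF1 letters were in 13 members (18.8%, against 12.7% and 5.19%), and YY1 letters in 8 (11.6%, against 4.23% and 1.64%). At least 1 of these 3 motifs was in 41 members (59.4%), against 35.1% of genes at 1 FPKM or more. Related groups held these letters too: CCGGAAG was in 42.1% of 57 cytosolic ribosomal protein genes and 25.4% of 63 respiratory chain genes, and the latter held NRF1 letters in 27.0% and YY1 letters in 11.1%.

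NF-kB letters, of interest since CD40 signals through NF-kB, were in 1 member (1.45%, against 1.87% of genes at 1 FPKM or more and 1.63% of all genes), and AP-1 letters in 3 (4.35%, against 6.05% and 8.97%). E-box letters were in 5 (7.25%, against 12.6% and 8.09%), TATA letters in 5 (7.25%, against 8.39% and 15.7%) and CRE letters in 2 (2.90%, against 3.69% and 2.03%). Members with CCGGAAG had a median log2 ratio of 0.15 and ranged from -1.02 to 0.49, and those without it had a median of 0.08 and ranged from -0.78 to 0.72. Members with NRF1 letters had a median of 0.19 against 0.10 without, and for YY1 letters the order was the reverse, with 0.02 against 0.16 without. A match is a string of letters and not evidence of a bound factor.

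**Figure D5:**
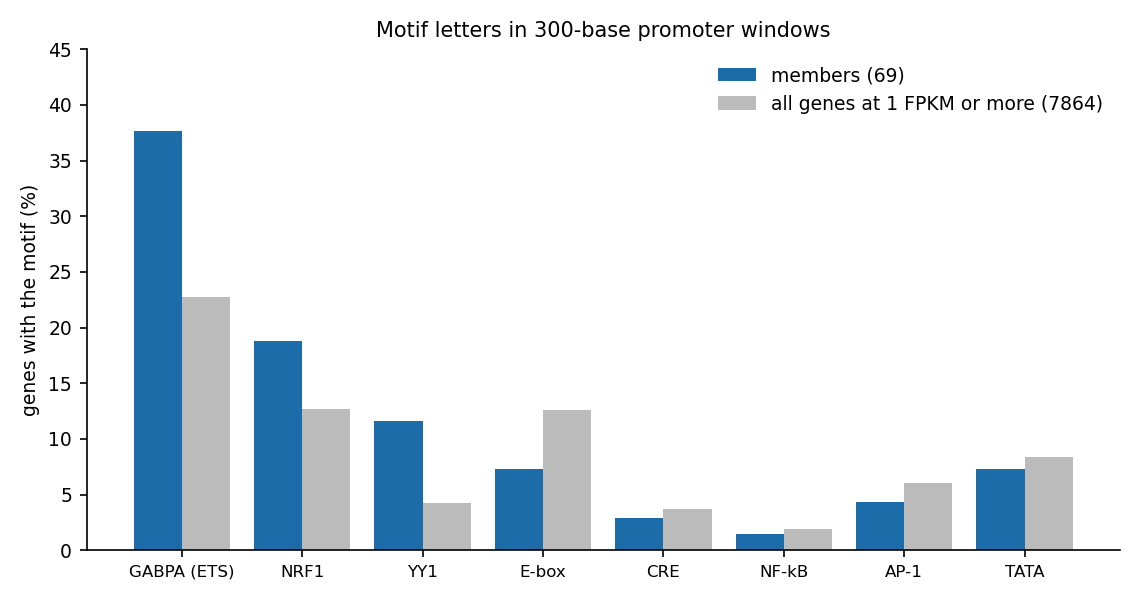
Percentage of genes (y axis) whose 300-base promoter window holds the letters of each motif (x axis), for the 69 members with a window (blue) and the 7864 genes at 1 FPKM or more (grey). The members' bars are the taller ones for GABPA (37.7% against 22.7%), NRF1 and YY1, and the shorter ones for the other 5 motifs.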

How the data were processed

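The values, read here as FPKM, come from 1 gene table that the authors deposited. The header names no unit, and FPKM was inferred from StringTie and from unequal totals (529103.5 for anti-CD40, 547362.0 for IgG). Per the submitters' processing notes, HISAT2 2.1.0, StringTie and build mm10 were used. The sources used here do not give the annotation, strand setting or filters. The proteins' sequences were not analysed here. Per the labels' protocols, 1.3 ug of RNA went into each TruSeq library. Unused value columns numbered 0.

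The measure was the log2 ratio of (FPKM + 1), which understates differences of low genes. Genes entered at 1 FPKM or more in either library. Depth came from the steps in which FPKM times length rises in single-exon genes (69.4% and 88.5% of 49 and 26 genes whole within 0.05 steps), read as fragments of 300 bases. Approximate fragments used the median GENCODE M21 transcript length and 20.5 or 18.6 fragments per FPKM and kilobase. Intervals are exact conditional binomial (scipy 1.17.1) on these numbers. Near copies (BLAST 2.17.0) needed 95% identity over 200 bases and 30% of a transcript.

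Named were the 8 highest and 8 lowest ratios at 5 FPKM, the 5 most and least abundant, members past 1.5-fold, the Mrps18 paralogs, Mrps30, Mrps36, subunits with other symbols, and up to 4 genes either way per related list. Members named beyond these were chosen after their values were seen, and members and lists were chosen with earlier results of these data known. Alternatives changed the pseudocount, scaling, filter, length and GC trends (lowess span 0.3) and members.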

Additional observations from a re-analysis of the deposited data

How the results depend on the processing

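The members' median log2 ratio ranged from -0.03 to 0.15 over 12 alternatives, with -0.03 after centring and after upper-quartile scaling. The median of all genes moved from 0.12 to 0.00 after upper-quartile scaling, to 0.16 with sums set to their mean and to 0.17 with sums set as in TPM. Members at least 1.5-fold higher numbered 3, but 5 with a pseudocount of 0.1, 1 with a pseudocount of 5 and 5 with TPM-like sums. Members at least 1.5-fold lower numbered 3, but 7 after centring and 7 after upper-quartile scaling. The shares of all genes past 1.5-fold, 2.68% higher and 2.15% lower, were computed for the main setting only. Pseudocount, centring and scaling act on all genes, so these changes in count are not particular to the members. The 1 member past 2-fold lower, Mrpl58, became 0 with a pseudocount of 5, with TPM-like sums, with sums set to their mean and with length and GC trends removed, where its log2 ratio was never weaker than -0.92. Without members that overlap another gene or have a near copy, an alternative chosen after seeing the data, 20 of 42 lay above the all-gene median, and 3 and 3 were past 1.5-fold. Of 28 named members, followed under 9 of the alternatives (23 of them with the filter at 5 FPKM), 26 kept their sign. Mrps22 turned from 0.09 to -0.03 and -0.01 after centring and upper-quartile scaling, and Mrpl52 from -0.07 to 0.11 with length and GC trends removed. No paired analysis was possible because each group holds 1 library. With 1 library per group, the spread between cultures is unknown, and a member such as Mrpl35, with about 48 and 30 fragments, has an interval from 0.901 to 2.37 on its ratio.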

Other observations

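Many members share a start region with a gene on the opposite strand. Of 69 members with a known start, 26 (37.7%) had such a neighbour starting within 1000 bases upstream, against 21.1% of 7609 protein-coding genes at 1 FPKM or more. The median distance was 129.5 bases. Several partners also serve mitochondria. Mrpl46 and Mrps11, of different ribosomal subunits, start 42 bases apart on chromosome 7 (78775341 to 78783089 and 78783131 to 78792988, GRCm38) and had log2 ratios of -0.47 and -0.44. Their exons overlap by 173 bases in GENCODE, and whether counting used strand is not given in the sources used here. Mrps12 starts 147 bases from Sars2, the mitochondrial seryl-tRNA synthetase, with log2 ratios of 0.35 and -0.12. Mrpl43 starts 116 bases from Twnk, the mitochondrial DNA helicase, with 0.14 and 0.09, and Mrpl47 lies 308 bases from Ndufb5, a subunit of respiratory complex I, with -0.08 and -0.64.

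Over the 21 such pairs that hold a member and in which both genes reached 1 FPKM, 16 (76.2%) lay on the same side of the all-gene median. Over all 523 such pairs the share was 54.5%. The pairs were looked at after the members' values were seen, and shared or overlapping exons can make partners alike where reads are not told apart by strand, so the shares are given as a description.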
